A study of Homo sapiens with 6 samples.

Results

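The MCM genes encode the ring-shaped motor that unwinds DNA ahead of the replication fork, together with their close relatives and one binding partner. The 9 genes MCM2, MCM3, MCM4, MCM5, MCM6, MCM7, MCM8, MCM9 and MCMBP were taken by matching gene symbols to the Ensembl identifiers of the count table, which held 60617 genes in all. Each of the 9 symbols matched 1 row, and all 9 rows were among the 17223 genes with enough counts to be tested. The data are read counts per gene from RNA sequencing of NCI-H1299, a human lung cancer cell line labelled lung adenocarcinoma. The knockdown cells carried a knockdown of FuHsi (3 libraries, titled Sh1), and the cells they were set against were labelled WT (3 libraries, titled Puro). The labels spell out neither Sh1 nor Puro and name no vector, hairpin sequence, clone or time after knockdown. They do not say whether the 3 libraries of a group came from separate cultures, so p-values measure only the spread between these libraries, which may be technical.

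MCM2 to MCM7 form a hexamer with 1 copy of each subunit. In G1 phase the origin recognition complex, CDC6 and CDT1 load pairs of these rings onto DNA, where they wait without activity. In S phase the kinases CDC7-DBF4 and CDK recruit CDC45 and the GINS complex to the rings, and the resulting CMG helicase unwinds the template. MCM genes are well-known targets of E2F transcription factors in cycling cells. MCM8 and MCM9 form a separate helicase that acts in recombination repair, and MCMBP binds newly made MCM proteins and promotes their assembly.

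The knockdown libraries held 24231515 to 27900051 counts and the control libraries 30735547 to 34306849, so every control library was deeper than every knockdown library. Values below are counts scaled to library depth (CPM, corrected by TMM factors), and a gene was called at a Benjamini-Hochberg adjusted p under 0.05 by edgeR's quasi-likelihood test across all tested genes. By that test 5295 genes were higher and 5317 lower in knockdown. Scaling by library size alone gave 6986 higher and 3855 lower and raised the median log2 fold change of all genes by 0.15. No row carries the name FuHsi, and the depth of the knockdown itself was not analysed here. The epithelial keratin KRT8 stood at 331 to 343 CPM of the uncorrected library total in knockdown and 466 to 471 CPM in control. KRT18 stood at 318 to 348 CPM in knockdown and 312 to 320 CPM in control. Of mesenchymal genes, VIM stood at 855 to 911 CPM in knockdown and 1270 to 1317 CPM in control. CDH2 stood at 67.5 to 70.9 CPM in knockdown and 59.4 to 68.1 CPM in control. FN1 stood at 54.2 to 60.9 CPM in knockdown and 25.6 to 29.2 CPM in control. EPCAM, CDH1 and KRT19 stayed under 1 CPM, as did the lung lineage genes NKX2-1, NAPSA and SFTPB, and SFTPC was at 0 counts in every library. Markers of immune, fibroblast and endothelial cells reached at most 2.19 CPM, for COL1A1 in a knockdown library.

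Of the 9 MCM genes, 8 fell in knockdown, 0 rose and 1, MCM9, was not called. All 6 subunits of the replicative ring fell. In the 8 called genes the knockdown and control libraries did not overlap, as in 65.3% of tested genes (32.3% with knockdown lower). Over all tested genes 30.9% were called lower and 30.7% higher. In the highest of 5 equal classes of genes by abundance, which holds MCM2 to MCM7 and MCMBP, 60.3% were called lower. In the class below it, which holds MCM8 and MCM9, 45.8% were called lower. The median log2 fold change was -0.75 over the 9 genes and -0.86 over the 6 ring subunits, against 0.03 over all tested genes. It was -0.20 over the highest abundance class and -0.08 over the class below it. Falls of at least 2-fold were seen for MCM3 and MCM6, where 3.12% of tested genes fell by that much. In bulk RNA, fewer cells in S phase and less MCM RNA per cell cannot be told apart. The spread of the falls within the ring was wide, with 1 subunit far from the other 5.

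**Figure D1:**
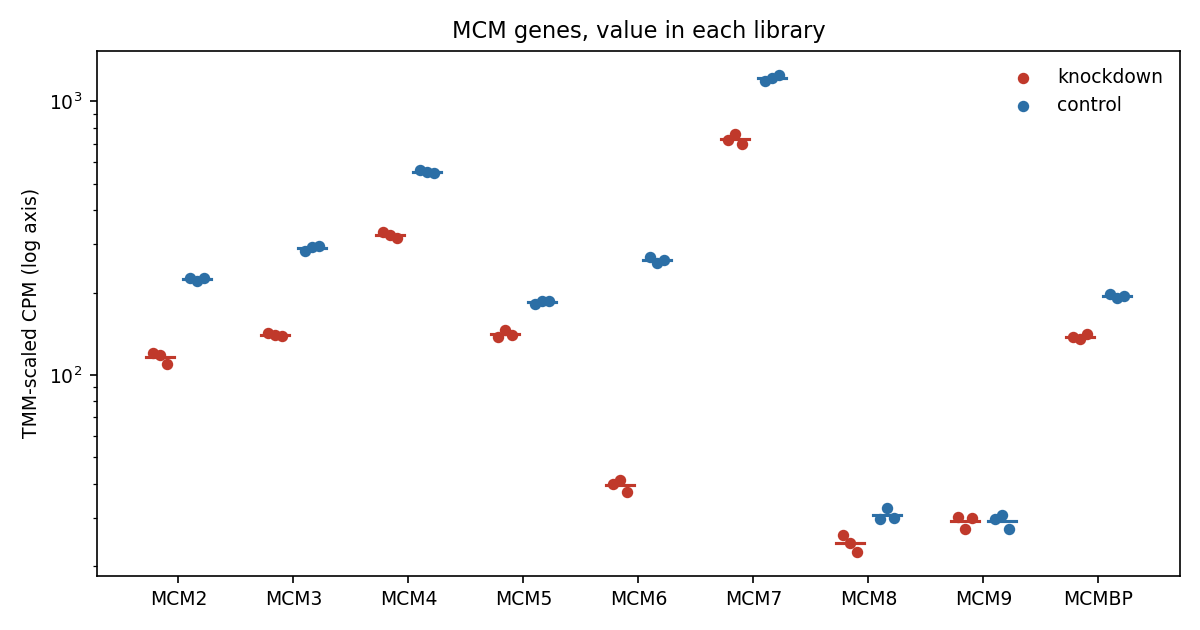
TMM-scaled CPM on a log axis for each of the 9 MCM genes, with 1 point per library, knockdown in red and control in blue, and a line at the mean of 3 libraries. The groups are apart for every gene but MCM9, and the widest gap is that of MCM6, at 37.4 to 41.5 CPM in knockdown and 256 to 271 CPM in control.

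MCM6 had the steepest fall. It contacts the loading factor CDT1 and lies between MCM2 and MCM4 in the ring. Its gene (ENSG00000076003) lies on the minus strand of GRCh38 chromosome 2, from 135839626 to 135876426. It stood at 40.0, 41.5 and 37.4 CPM in the knockdown libraries, against 271, 256 and 263 CPM in the control libraries. The highest knockdown library was far below the lowest control library. The means were 39.6 ± 2.07 CPM in knockdown and 263 ± 7.14 CPM in control (SD, n = 3 each). The log2 fold change was -2.73 ± 0.04 (SE), 6.65-fold lower (edgeR quasi-likelihood fit, adjusted p = 6.02e-50). Among the 12707 tested genes with a mean log2 CPM of at least 1, its fold change ranked 2 from the lowest.

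MCM3 and MCM2 had the next largest falls. MCM3 (ENSG00000112118, chromosome 6, 52264009 to 52284881, minus strand) stood at 143, 140.1 and 139 CPM in knockdown, against 284, 293 and 297 CPM in control. Its log2 fold change was -1.05 ± 0.04 (SE; edgeR quasi-likelihood fit, adjusted p = 8.43e-34). MCM2 carries a histone-binding tail and with MCM5 forms the gate through which DNA enters the ring. MCM2 (ENSG00000073111, chromosome 3, 127598223 to 127622436, plus strand) stood at 119.9, 118 and 109.7 CPM in knockdown, against 227, 220.0 and 226 CPM in control. Its log2 fold change was -0.95 ± 0.04 (SE). In both genes the knockdown values lay near the middle of the distance from 0 to the control values, and the groups did not overlap.

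MCM4 and MCM7 had the highest levels per kilobase of transcript and fell less than MCM3 and MCM2. MCM4, whose tail is a main target of the CDC7-DBF4 kinase, stood at 332, 325 and 316 CPM in knockdown, against 563, 549.7 and 546 CPM in control, a log2 fold change of -0.77 ± 0.03 (SE). MCM7, the subunit that is ubiquitylated when the helicase is taken off DNA, stood at 722, 760.2 and 696 CPM in knockdown, against 1183, 1217 and 1252 CPM in control. Its log2 fold change was -0.75 ± 0.03 (SE), and the 95% intervals of the 2 genes overlapped, at -0.83 to -0.71 for MCM4 and -0.81 to -0.69 for MCM7. MCM5, on chromosome 22, had the smallest fall in the ring. It stood at 137, 146 and 139.9 CPM in knockdown, against 181, 186 and 186 CPM in control, and its log2 fold change was -0.39 ± 0.04 (SE). Although small, that fall was larger than the spread between libraries (edgeR quasi-likelihood fit, adjusted p = 9.77e-14).

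The 3 genes outside the ring had log2 fold changes between -0.49 and 0.00. MCMBP stood at 137, 135 and 142 CPM in knockdown, against 197, 192 and 194 CPM in control, and its log2 fold change was -0.49 ± 0.04 (SE). MCM8 and MCM9 had the lowest levels per kilobase of the 9. MCM8 (chromosome 20, 5950652 to 5998977, plus strand) stood at 26.0, 24.4 and 22.6 CPM in knockdown, against 29.7, 32.7 and 30.05 CPM in control. It fell by 0.34 on the log2 scale (SE 0.07; edgeR quasi-likelihood fit, adjusted p = 6.14e-05), and with library size alone the value was -0.18. MCM9 (chromosome 6, 118813442 to 118935162, minus strand) stood at 30.4, 27.3 and 29.9 CPM in knockdown, against 29.8, 30.7 and 27.4 CPM in control, so that the groups overlapped. Its log2 fold change was -0.00 with a 95% interval from -0.14 to 0.14 (edgeR quasi-likelihood fit, adjusted p = 0.977). The log2 difference of MCM9 minus MCM8 was 0.26 ± 0.127 in knockdown and -0.07 ± 0.0699 in control (SD, n = 3 each). A two-sided exact permutation test of that difference gave p = 0.1, the smallest that 3 against 3 libraries allow. That contrast was not among the planned results, and it sets the uncalled gene against a called one.

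**Figure D2:**
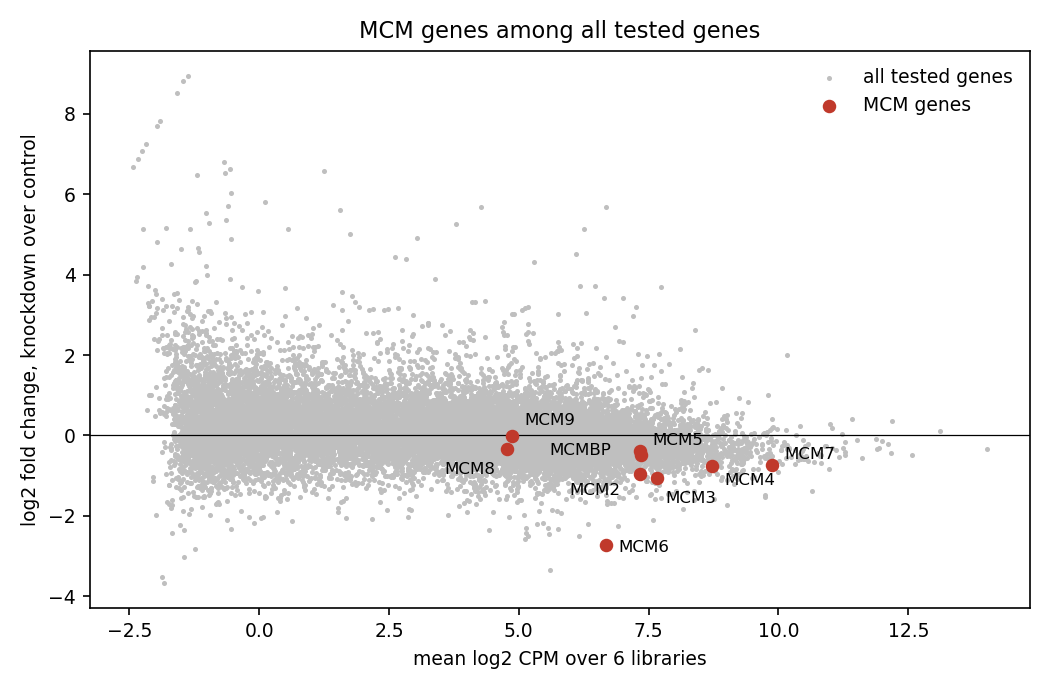
Log2 fold change of knockdown over control against mean log2 CPM over 6 libraries for all 17223 tested genes (grey) and the 9 MCM genes (red). MCM6 lies at -2.73, near the lower edge of the cloud at its abundance, the other ring subunits lie between -1.05 and -0.39, and MCM9 lies on the zero line.

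The make-up of the MCM RNA pool differed between knockdown and control, as did its size. MCM2 to MCM7 together took 0.157% ± 0.00467 of all counts in knockdown and 0.259% ± 0.00121 in control (SD, n = 3 each), a fall of 39.5%, of which MCM6 alone made up 20.3%. After division of counts by the longest annotated transcript of each gene, MCM6 made up 2.48%, 2.50% and 2.41% of the ring's summed level in the knockdown libraries, against 9.28%, 8.72% and 8.79% in the control libraries. With the length of all exonic bases in place of the longest transcript, these shares averaged 3.17% in knockdown and 11.2% in control. The MCM6 share was thus lower in every knockdown library under both lengths. MCM7 took the largest share, 54.7% ± 0.747 in knockdown and 49.9% ± 0.764 in control. MCM5 took 7.13% ± 0.208 in knockdown and 5.08% ± 0.0558 in control, and MCM4 took 18.03% ± 0.439 in knockdown and 16.7% ± 0.481 in control. These 3 subunits held larger shares in knockdown libraries, and MCM3 and MCM2 held smaller ones. The shares are parts of the same sum, so a smaller MCM6 share by itself raises the others. Their changes are thus not separate results. The shares of MCM3 were 10.2% ± 0.301 in knockdown and 11.5% ± 0.149 in control, and those of MCM2 were 7.44% ± 0.197 in knockdown and 7.84% ± 0.161 in control. These shares do not depend on how libraries are scaled. For all 6 subunits the groups did not overlap, and the two-sided exact permutation p was 0.1, the smallest possible, before and after adjustment over the 6. With the length of all exonic bases, the groups overlapped for MCM2 (p = 0.3 by the same exact test).

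**Figure D3:**
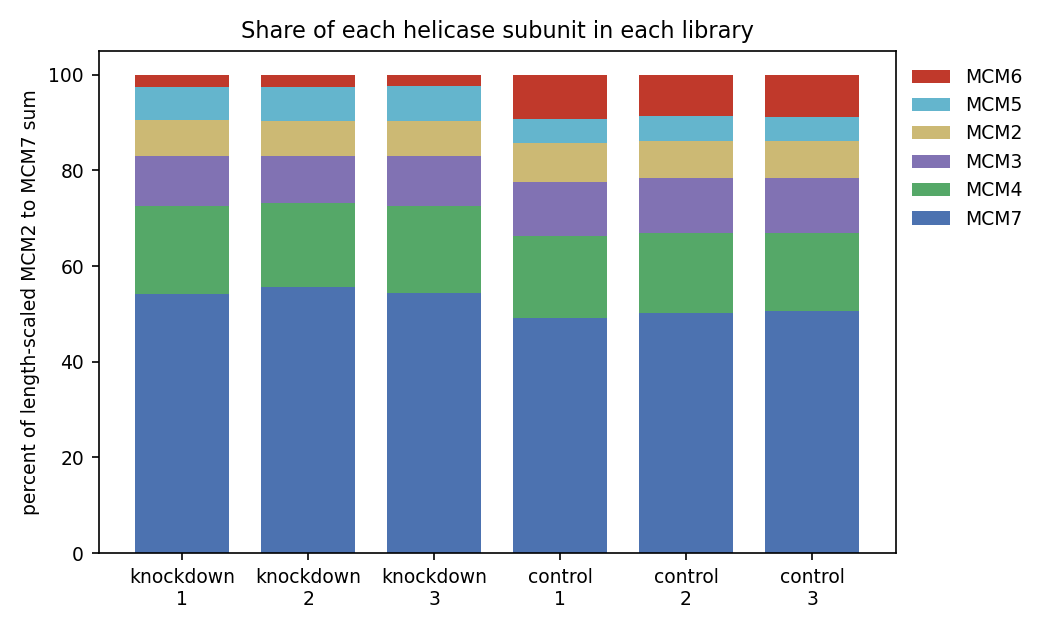
Share of each subunit in the length-scaled sum of MCM2 to MCM7, in percent, as 1 stacked bar per library, with the 3 knockdown libraries left of the 3 control libraries. The MCM6 segment at the top is 2.41% to 2.50% high in knockdown and 8.72% to 9.28% high in control.

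Per kilobase of longest transcript, the order of levels in knockdown was MCM7 (235 CPM per kilobase), MCM4 (77.5), MCM3 (43.8), MCMBP (33.1), MCM2 (32.02), MCM5 (30.6), MCM6 (10.6), MCM9 (3.85) and MCM8 (3.25). In control it was MCM7 (395 CPM per kilobase), MCM4 (132), MCM3 (90.7), MCM6 (70.5), MCM2 (61.9), MCMBP (46.6), MCM5 (40.1), MCM8 (4.12) and MCM9 (3.86). MCM6 thus stood in place 7 in knockdown and in place 4 in control. The library ranges of MCMBP and MCM2 overlapped in knockdown, as did those of MCM2 and MCM5, and in control those of MCM8 and MCM9. With the length of all exonic bases, MCM8 stood above MCM9 in both groups, and MCM3 and MCM4 overlapped in control. Set against the mean log2 CPM of the other 5 ring subunits, MCM6 was at -2.48, -2.45 and -2.53 in knockdown, against -0.48, -0.57 and -0.55 in control. The difference between groups was -1.95, with an exact permutation p of 0.1, the smallest possible. MCM6 was chosen for this contrast because earlier results of these data had shown its fall to be the largest. The p is thus no separate evidence.

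The promoters of MCM6 and MCM3, the members with the largest falls, and of MCM9, the member that was not called, are shown from 250 bases before to 50 bases after the RefSeq start, 5′ to 3′ on the gene's strand (GRCh38.p14). Capitals mark words of the E2F type on either strand: the word TTCCCGC, the word TTGGCGC, the word TTGCCGC and the word TTCGCGC.
MCM6, chr2:135876394-135876693, minus strand: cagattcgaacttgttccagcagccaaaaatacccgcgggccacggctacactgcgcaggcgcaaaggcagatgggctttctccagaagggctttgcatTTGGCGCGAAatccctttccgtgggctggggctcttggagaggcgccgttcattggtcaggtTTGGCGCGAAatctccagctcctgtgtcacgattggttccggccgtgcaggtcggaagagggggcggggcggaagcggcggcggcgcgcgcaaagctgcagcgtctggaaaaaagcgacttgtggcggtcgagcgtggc
MCM3, chr6:52284693-52284992, minus strand: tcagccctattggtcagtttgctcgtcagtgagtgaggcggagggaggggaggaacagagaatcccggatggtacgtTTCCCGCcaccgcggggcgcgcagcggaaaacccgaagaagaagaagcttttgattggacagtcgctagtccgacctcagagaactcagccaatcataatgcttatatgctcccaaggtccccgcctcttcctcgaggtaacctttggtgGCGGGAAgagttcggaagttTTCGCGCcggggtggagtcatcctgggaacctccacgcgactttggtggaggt
MCM9, chr6:118935110-118935409, minus strand: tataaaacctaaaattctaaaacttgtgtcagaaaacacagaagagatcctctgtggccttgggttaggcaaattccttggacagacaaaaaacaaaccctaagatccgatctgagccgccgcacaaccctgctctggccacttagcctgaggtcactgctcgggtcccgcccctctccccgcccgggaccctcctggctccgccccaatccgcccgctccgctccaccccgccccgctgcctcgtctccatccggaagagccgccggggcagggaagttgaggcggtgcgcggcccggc

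The MCM6 window holds the same 10-base run in 2 places, at positions -151 and -89 from the start. In each, TTGGCGC on the gene's strand overlaps TTCGCGC on the other strand. RefSeq windows were at hand for 7 of the 9 members, and 6 of these (MCM2, MCM3, MCM6, MCM7, MCM8 and MCMBP) held at least 1 of the 4 words, where the exception was MCM9. Counted by window, since some genes have several starts, 7 of 10 member windows held a word, against 4553 of the 35116 windows of all genes, 18.6% of the windows of tested genes and 22.2% of those of genes called lower. The word CCAAT, on either strand, was in windows of 5 members. It was in 34.6% of all windows, 34.7% of those of tested genes and 35.1% of those of genes called lower. TTTGAA was in 0 member windows, against 15.2%, 10.6% and 9.76% in the same order. The word CACGTG was in windows of MCM2, MCM7 and MCM8, against 7.26%, 9.15% and 10.4% in that order. For CCAAT and CACGTG, members are counted by gene and the shares by window. A match is a description of letters, not of a bound site. The window of MCM8, whose fall was small, held E2F-type words too.

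The 3′ UTR of each member, the stretch after the coding sequence, was searched for 3 words. Earlier results of these data had singled out the word CTATTGA with the words CCTATTG and also ACCTATT as frequent in genes that fell far, so their presence in MCM6 is no separate evidence. One site is given here because it holds CTATTGA, in capitals, overlapping CCTATTG by all but 1 base.
MCM6 3′ UTR site, chr2:135840498-135840527, minus strand: tatgtgctgtcCTATTGAgcaaataacttt
The word starts at base 319 of an annotated 3′ UTR of 1209 bases. None of the other 8 members held any of the 3 words in the 3′ UTR. In coding sequence, MCM2 and MCM8 held CTATTGA and MCM9 held ACCTATT. Among 13038 tested protein-coding genes with a 3′ UTR, 16.2% held at least 1 of the words there. The share was 18.5% of genes called lower, 15.8% of genes called higher, 13.7% of genes not called, and 14 of the 28 genes lower by at least 4-fold. Because the words were singled out in these same data, these shares are no separate evidence either. The labels do not give the sequence of the Sh1 hairpin, and the part of this site in the fall of MCM6 was not tested.

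Among 8481 other genes with a mean log2 CPM of at least 4, those whose centred log2 CPM profile over the 6 libraries lay nearest to that of MCM6 were NCAPG2, CCM2, MAD2L1, FZD6 and RFC3, at Euclidean distances of 0.338 to 0.402. Their log2 fold changes ran from -2.58 to -2.41. Nearest to the mean profile of MCM2 to MCM7 were LMNB2, TOMM40, PRPF4, UBA2 and CDKN3, at distances of 0.0331 to 0.0571 and fold changes of -1.12 to -1.08. In these 6 libraries 61.6% of tested genes differed between the groups, and likeness of profile was measured over the same libraries.

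Of the 9 members, 6 begin within 1000 bases of a gene on the opposite strand. The neighbour of MCM9 (ENSG00000253194) had 5 to 11 counts per library and was not tested, and the other pairs moved together in some cases and apart in others. MCM4 starts 2 bases from PRKDC, which encodes the catalytic subunit of the DNA-dependent protein kinase. PRKDC stood at 1313 ± 25.3 CPM in knockdown and 2060 ± 47.3 CPM in control (SD, n = 3 each), a log2 fold change of -0.65. MCM8 starts 94 bases from TRMT6, a subunit of a tRNA methyltransferase, which fell by 0.33 on the log2 scale, close to the 0.34 by which MCM8 fell. In the other 3 pairs the neighbour was not called lower. TPRA1, 44 bases from MCM2, rose by 0.29, and SEC23IP, 155 bases from MCMBP, rose by 0.23. AP4M1, an adaptor complex subunit 391 bases from MCM7, stood at 28.6, 31.6 and 31.7 CPM in knockdown, against 30.8, 32.6 and 29.9 CPM in control. The groups overlapped, and its log2 fold change of -0.02 missed the threshold (edgeR quasi-likelihood fit, adjusted p = 0.789).

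**Figure D4:**
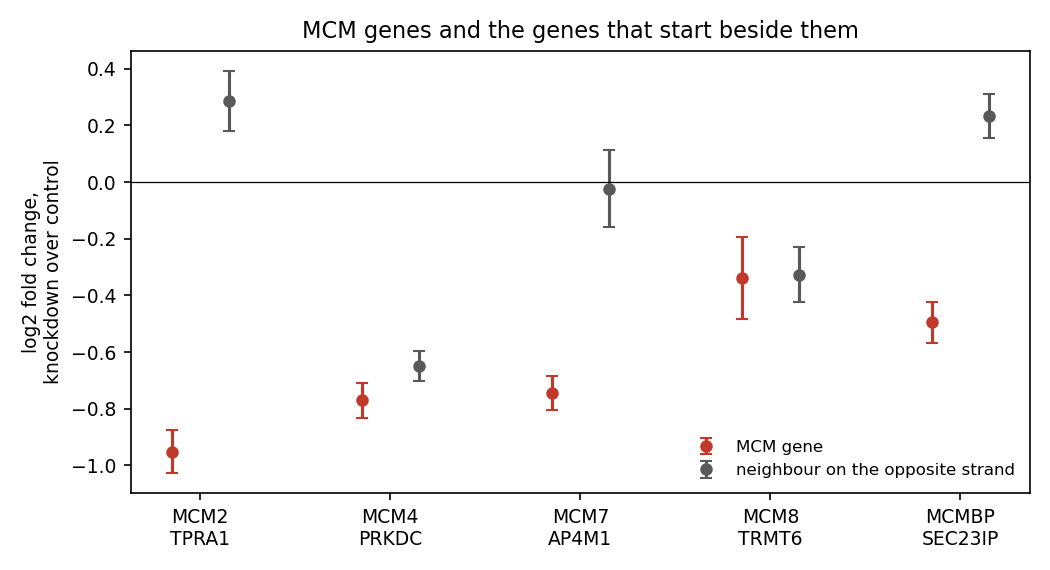
Log2 fold change of knockdown over control for 5 MCM genes (red) and the tested gene that starts within 1000 bases on the opposite strand (grey), with bars for the 95% interval. MCM4 with PRKDC and MCM8 with TRMT6 lie below zero together, TPRA1 and SEC23IP lie above it, and the interval of AP4M1 covers it.

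Some members share exonic bases with other genes, and whether counting used strand is not given, so such reads may be assigned to either gene or to none. For MCM2 the shared part was 23.6% of exonic bases, nearly all of it with an antisense gene (ENSG00000285600) that had 0 to 6 counts per library. It was 8.94% for MCM7, with AP4M1, and 1.90% for MCM9. For MCM9, 137 of these bases were shared with ASF1A, a histone chaperone gene that rose by 0.92. MCM3, MCM4, MCM5, MCM6, MCM8 and MCMBP shared 0 bases with other genes.

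MCM7 is also the host of 3 microRNA genes, MIR106B, MIR93 and MIR25, which lie in it on the same strand. Their main mature products are shown because they leave the same primary transcript as MCM7, with the seed (bases 2 to 8) in capitals.
miR-106b-5p: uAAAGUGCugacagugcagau
miR-93-5p: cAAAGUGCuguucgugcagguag
miR-25-3p: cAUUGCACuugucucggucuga
The first pair share the seed AAAGUGC, and miR-25-3p has another. The rows of these genes were thinly counted, and libraries of this kind do not measure mature microRNAs. MIR25 had 48, 40 and 30 counts in knockdown, against 53, 56 and 38 in control, and was not called, at a log2 fold change of -0.09 ± 0.28 (SE; edgeR quasi-likelihood fit, adjusted p = 0.797). MIR93 had 9, 9 and 1 counts in knockdown, against 7, 14 and 18 in control, and was not called either, at -0.82 ± 0.59 (SE). MIR106B had 19 counts over the knockdown libraries and 31 over the control libraries, too few to be tested.

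The factors that load, start and accompany the helicase are listed next. Their counts of falls stand against 30.9% called lower over all tested genes. The share was 60.3% in the most abundant class and 45.8% in the class below it, where most of these genes lie. Their medians stand against 0.03 over all tested genes, -0.20 in the most abundant class and -0.08 in the class below it. Of 11 genes for origin recognition and helicase loading, 9 fell, 0 rose and the median log2 fold change was -0.44. GMNN (geminin), which blocks loading outside G1 by binding CDT1, stood at 40.1 ± 2.71 CPM in knockdown and 102 ± 2.84 CPM in control (SD, n = 3 each) and fell by 1.34 on the log2 scale. CDT1 itself, the loader that MCM6 contacts, fell by 0.89. ORC2 and KAT7 were not called, at -0.10 and -0.06, and both were called lower without knockdown replicate 3, where all 11 fell. Of 15 genes for helicase activation and origin firing, 14 fell and 0 rose (median log2 fold change -0.55). RECQL4 was at -1.24 and MCM10, which activates the assembled CMG helicase and is no member of the MCM ring family, was at -1.09. All 4 GINS genes fell, from -0.77 for GINS4 to -0.38 for GINS2, and CDC45 fell by 0.95. MTBP was the exception, at -0.12 (edgeR quasi-likelihood fit, adjusted p = 0.107), and without knockdown replicate 1 it was called lower too.

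Of 12 replisome partners of the helicase, 11 fell and the median was -0.58. The sliding clamp PCNA stood at 83.0 ± 5.11 CPM in knockdown and 184 ± 7.80 CPM in control (SD, n = 3 each) and fell by 1.15. PRIM1, the catalytic primase subunit, fell by 1.14. POLA2 was not called, at 0.24, and it was called higher with library size alone. Of 11 genes for taking the helicase off DNA, 8 fell and 2 rose (median log2 fold change -0.36). TRAIP, a ubiquitin ligase, fell by 0.54 and ELOC fell by 0.49, while UBXN7, an adaptor of the VCP unfoldase, and CUL2, the cullin of the unloading ligase, both rose by 0.17. Without knockdown replicate 1, or without control replicate 2, 1 gene of this list was called higher in place of 2. LRR1, the substrate receptor of that ligase, was not called.

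Of 15 genes in the list of MCM8 and MCM9 partners and recombination, 10 fell and 3 rose (median log2 fold change -0.34). Over all tested genes 30.9% were called lower and 30.7% higher. In the most abundant class 60.3% were called lower, and 45.8% in the class below it. The mix of directions is not read as a result about the list. With DESeq2, 2 genes of it were called higher in place of 3. RPA1, of the single-strand binding complex, fell by 0.63. HROB, which loads the MCM8-MCM9 helicase, stood at 16.9 ± 1.69 CPM in knockdown and 12.8 ± 0.844 CPM in control (SD, n = 3 each) and rose by 0.40. NBN, of the complex that senses double-strand breaks, rose by 0.29. Of 9 genes for histone chaperones and other MCM-binding factors, 8 fell and 1, ASF1A, rose. MMS22L and TONSL, which form a complex that guards stalled forks, were at -1.10 and -1.04.

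The list of E2F and RB regulators includes regulators of MCM promoters. It also holds LIN54, LIN9, LIN37, LIN52 and MYBL2, which are in neither family. Of its 18 genes, 11 fell and 4 rose (median log2 fold change -0.35). This share of falls is near the 60.3% and 45.8% of genes called lower in the 2 most abundant classes, and is not a result about the list. E2F1, an activator of MCM genes, stood at 52.98 ± 1.99 CPM in knockdown and 108 ± 2.72 CPM in control (SD, n = 3 each). Of the atypical repressors, E2F8 was at -1.38 and E2F7 at 0.88. TFDP1, the dimer partner of E2F proteins, fell by 1.22. LIN37, a subunit of the DREAM complex, rose by 0.78 at 5.38 ± 0.229 CPM in knockdown and 3.12 ± 0.359 CPM in control. Of 14 cell-cycle phase markers, 13 fell and 1 rose (median log2 fold change -0.88, range -2.35 to 0.29). RRM2, a ribonucleotide reductase subunit made in S phase, fell by 1.56, CCNE1 (cyclin E1) was at -2.35, and CCND1 (cyclin D1) rose by 0.29. The part of a changed cycle phase distribution in the MCM falls was not tested.

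The last list is of checkpoint kinases and their adaptors. Of 10 genes, 4 fell and 5 rose (median log2 fold change 0.08). Over all tested genes 30.9% were called lower and 30.7% higher, so these counts are not read as a result about the list. WEE1 fell by 0.82 and CHEK1 fell by 0.53, while CHEK2 rose by 0.47 and HUS1 by 0.32. ATR, the kinase that senses stalled forks, stood at 107 ± 2.00 CPM in knockdown and 107 ± 4.33 CPM in control (SD, n = 3 each) and was not called (edgeR quasi-likelihood fit, adjusted p = 0.978). The count of rises depended on the fit. With DESeq2, or without control replicate 1, 1 gene was called higher in place of 5.

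**Figure D5:**
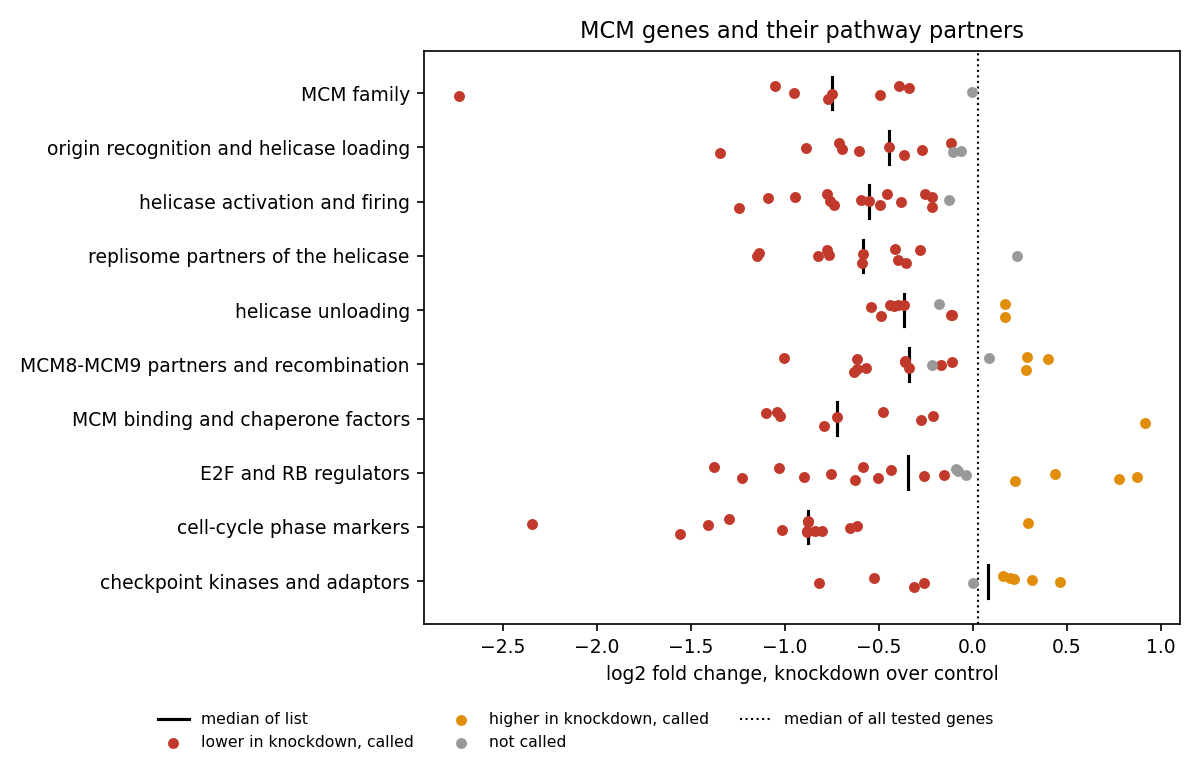
Log2 fold change of knockdown over control for each tested gene of the MCM family and of 9 lists of partner genes, 1 row per list, coloured by call, with a bar at the list's median and a dotted line at the median of all tested genes, 0.03. In every list but that of checkpoint kinases the median lies below the dotted line, and MCM6 at -2.73 is the lowest point. The medians of the most abundant class (-0.20) and of the class below it (-0.08) are not drawn.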

How the data were processed

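RNA of NCI-H1299 cells was sequenced in 3 FuHsi knockdown and 3 control libraries. RNAiso Plus extraction and a Tru-seq kit are recorded per the labels' protocols. The authors deposited 1 table of raw read counts per Ensembl gene, 1 column per library. The tools named, per the submitters' processing notes and with no role or order, are featureCounts 2.0.1, STAR 2.7.0d, DESeq2 1.30.1 and Trim Galore 0.6.6, with the build hg38. Annotation release, use of strand and treatment of multiply aligned reads: not given in the sources used here.

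From the counts, genes were filtered with filterByExpr (minimum count 10), scaled by TMM and tested with edgeR 4.0.16 in R 4.3.3 (quasi-likelihood test, robust dispersions, group as the only term), with Benjamini-Hochberg adjustment over 17223 genes. SEs derive from the test statistic and 95% intervals from the SE. Log2 CPM used a prior count of 2. The common biological coefficient of variation was 4.67%. Over all 16892 genes tested in simulated counts for knockdown against control, 79 of 98 changes of 1 log2 unit and 65 of 98 of 0.5 were recovered. Of 16696 unchanged genes 8 were called. At log2 CPM of at least 4 (8565 genes), 56 of 56 changes of 1 and 60 of 60 of 0.5 were recovered. There 2 of 8449 unchanged genes were called. Few genes were changed in the simulation, so scaling where 61.6% of genes differ was not tested.

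Names came from a gene name table that matched 60261 of 60617 identifiers. Positions, lengths and 3′ UTRs (from the transcript with the longest coding sequence) came from GENCODE v29 on GRCh38, and promoters and microRNAs from RefSeq (GRCh38.p14). The members and lists were chosen with earlier results of these data known, as was the contrast of MCM6 with the other ring subunits. The contrast of MCM9 with MCM8 was not planned. The named genes were all members, in each list the called genes with the largest changes (at most 2 each way) at a mean log2 CPM of at least 1, members' neighbours within 1000 bases on the opposite strand, overlapping genes and hosted microRNAs, and the 5 nearest profiles; other genes named (E2F1, CDC45, the GINS genes, ATR, ORC2, KAT7, MTBP, POLA2 and LRR1) were chosen after their values were seen, and the search for the 3′ UTR words was added later. One gene that this rule names is not reported here. Permutation tests were exact over libraries. Alternatives were RLE, upper-quartile and library-size scaling, no filter or a minimum count of 50, DESeq2, non-robust dispersions, a replicate block, thinned counts, another prior count, the length of all exonic bases and leaving out each library.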

Additional observations from a re-analysis of the deposited data

How the results depend on the processing

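Under the 15 alternatives to the fit, each of the 9 MCM genes kept its side of the threshold, and the 8 called genes kept their direction. MCM6 ranged from -2.78 to -2.58, MCM3 from -1.08 to -0.90, MCM5 from -0.42 to -0.24 and MCM8 from -0.40 to -0.18, where its adjusted p reached 0.0275 with library size alone. MCM9 ranged from -0.05 to 0.15 and was called in none of them. Genes called over the whole table numbered 4575 (DESeq2) to 6986 (library size alone) higher and 3855 (library size alone) to 5401 (RLE) lower. Among the partner lists, replisome genes called higher numbered 1 with upper-quartile factors, library size alone or a minimum count of 50, in place of 0, and 0 to 1 when 1 library was left out (1 without control replicate 2). Unloading genes called higher numbered 1 to 2 when 1 library was left out, with 1 without knockdown replicate 1 or control replicate 2. Checkpoint genes called higher numbered 2 without a filter and 1 with DESeq2, in place of 5, and 1 to 4 when 1 library was left out: 1 without control replicate 1, 2 without knockdown replicate 2 or 3, and 3 without control replicate 3. With library size alone 2 checkpoint genes were lower in place of 4. The cause of these shifts was not tested. The difference of the MCM6 share of the ring between knockdown and control was -6.46 percentage points, and -8.03 with the length of all exonic bases, which alters the divisor of each gene. Adding a replicate block to the fit gave 5214 higher and 5263 lower genes, and 8 of 9 MCM genes were lower as without it. After subtracting group means, the correlations between libraries that share a number were -0.000751, -0.00642 and -0.0235, so the numbers give no sign of pairing. Depth limits the microRNA rows, with 1 to 56 counts per library.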
